A study of Drosophila melanogaster with 10 samples.

Results

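The eye of the fruit fly Drosophila melanogaster owes its colour to brown ommochromes and red pteridines, and 9 genes of their synthesis and transport were chosen by gene symbol. The rule uses no measured value, but it was set with earlier results of these data known. They were the transporter genes w (white), st (scarlet) and bw (brown), the ommochrome enzyme genes v (vermilion) and cn (cinnabar), and the pteridine enzyme genes Pu (Punch), pr (purple), Hn (Henna) and se (sepia). Of these 9 genes, 6 were named by a probe set in the platform annotation, through 7 of the 14010 probe sets on the array. They were st, bw, cn, Pu, pr and se, and all 6 passed a filter on dim probe sets. No probe set carried the symbols w, v or Hn, and these 3 genes were not analysed here, so the transporters were represented by 2 of 3 genes, the ommochrome enzymes by 1 of 2 and the pteridine enzymes by 3 of 4.

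The samples were total RNA from whole adult females of 5 laboratory lines selected for heat resistance and 5 unselected control lines. Each line was measured on 1 array. The series design states that the lines were independent, so replicate error here is the variation between lines. The labels give no strain, age, rearing or treatment before sampling, and no eye colour of the lines. Whole flies were used, so the eye is a small part of each sample, and fewer cells of a type and less RNA per cell cannot be told apart.

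Ommochromes are made from tryptophan, which vermilion opens to the kynurenine pathway and cinnabar hydroxylates to 3-hydroxykynurenine. Pteridines are made from GTP, starting with the GTP cyclohydrolase Punch and the pyruvoyl tetrahydropterin synthase purple, and the same steps give tetrahydrobiopterin, the cofactor of the hydroxylases that make dopamine and serotonin. White is a transporter subunit of the ABCG family that pairs with Scarlet to load ommochrome precursors into pigment granules and with Brown to load pteridine precursors. Henna is the phenylalanine hydroxylase, which uses tetrahydrobiopterin. Pigment genes are also active outside the eye, white and scarlet among them in the Malpighian tubules, the excretory organ of the fly.

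Among the 6 measured genes st had the largest difference between the groups, 1.42-fold higher in the selected lines. Pu followed at 1.22-fold, and the fold of bw, cn, pr and se lay between 0.940 and 1.04. None of the 6 passed limma's test at an adjusted p under 0.05, where 0 of 10961 features (0%) passed and 0.232 was the smallest value reached. Without adjustment 1 of the 6, st, had p under 0.05, against 9.52% of all features in either direction and 5.55% in the direction of higher in the selected lines. In 0 of the 6 genes were the groups free of overlap, against 1.59% of all features.

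Array medians were between 41.9 and 48.3 on the linear intensity scale. The 23 control probe sets of other organisms, which mark the level of no signal, lay at 2.13 to 3.64 in log2(intensity + 1). Line 1 of both groups stood apart from the other lines on the first principal component (scores of -23.2 selected and -24.7 control, against -9.82 to 15.4). On these 2 arrays the 3' probe sets of 3 Drosophila control transcripts exceeded their 5' probe sets by the most (2.76 selected and 2.27 control in log2, against 1.43 to 1.93 elsewhere). Such a 3' excess increases with RNA degradation and with incomplete reverse transcription.

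Scarlet (st, chromosome arm 3L) is the transporter subunit of the ommochrome branch. Its intensity was 52.7, 28.8, 35.1, 35.9 and 30.2 in selected lines 1 to 5, and 33.2, 22.1, 22.0, 20.5 and 28.7 in control lines 1 to 5. Selected lines 1, 3 and 4 were above every control line, and the 4 control lines other than line 1 were below every selected line. For control line 5 the margin was small (28.7, against 28.8 in selected line 2). In log2(intensity + 1) the level was 5.20 ± 0.33 in the selected lines and 4.69 ± 0.29 in the control lines (SD, n = 5 each). The difference, selected minus control, was 0.50 ± 0.17 (SE), with a 95% interval of 0.12 to 0.88 and an adjusted p of 0.369 over all features from limma. An exact two-sided permutation test of this 1 gene over all labelings of the lines gave p = 0.0317, not adjusted, where 0.00794 is the smallest p the design allows. Line 1 was the highest line of each group, and it is the line with the high 3' excess. Without line 1 of both groups the difference was 0.47 ± 0.11 (SE, adjusted p = 0.114 from limma), and without selected line 1 alone it was 0.37 ± 0.14. With any 1 of the 10 lines left out, the difference stayed between 0.37 and 0.60 and did not pass.

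Brown (bw, arm 2R), the subunit of the pteridine branch, hardly varied. Its brighter probe set read 21.8, 21.5, 22.6, 26.2 and 23.6 in selected lines 1 to 5 and 21.6, 22.2, 22.2, 22.5 and 22.9 in control lines 1 to 5. Selected lines 4 and 5 were above every control line and selected line 2 was below every control line, by small margins other than for line 4, so the control lines lay within the range of the selected lines. The log2 level was 4.59 ± 0.11 in the selected lines and 4.54 ± 0.030 in the control lines (SD, n = 5 each). The difference was 0.050 ± 0.066 (SE, adjusted p = 0.999 from limma), and its 95% interval of -0.095 to 0.19 leaves room for a fold of 0.936 to 1.14. A second bw probe set, at 4.6 to 5.1 in the selected lines and 4.1 to 5.2 in the control lines, lay within the level of no signal on all arrays and was not tested.

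**Figure D1:**
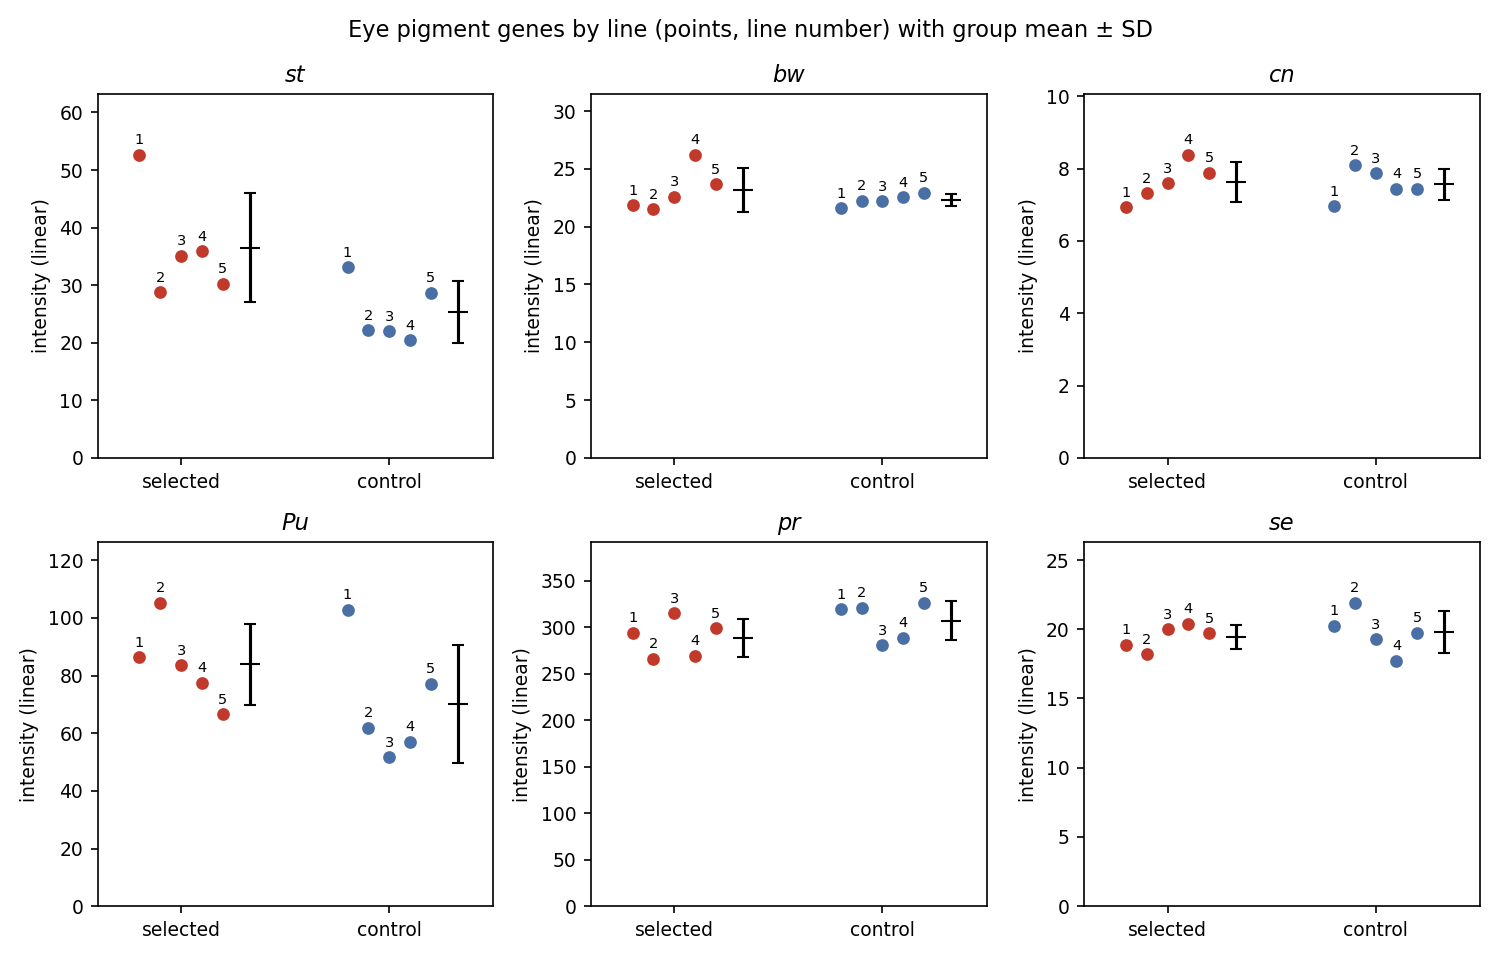
Intensity (linear, y axis from 0) of the 6 measured eye pigment genes in 5 selected and 5 control lines, as points with their line number, and the group mean ± SD in black. The spread of st (20.5 to 52.7) and Pu (51.7 to 105.2) is wide and the groups overlap in every panel, while bw, cn, pr and se stay within a narrow band.

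Cinnabar (cn, arm 2R) was the only ommochrome enzyme gene measured, and its signal was at the level of no signal. It read 6.9, 7.3, 7.6, 8.4 and 7.9 in selected lines 1 to 5 and 7.0, 8.1, 7.9, 7.4 and 7.4 in control lines 1 to 5. All 10 values were below the 11.5 reached by a control probe set of another organism, and 8 of 10 arrays exceeded the filter level. The array with the highest cn value, selected line 4, also had the highest median of the control probe sets of other organisms (2.98 in log2). Line 1 of both groups had the lowest cn values and the lowest such medians (2.76 selected and 2.65 control). The difference of 0.0097 ± 0.067 (SE, adjusted p = 0.999 from limma) therefore says little about the cn transcript.

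Punch (Pu, arm 2R) makes the first committed step from GTP, for both eye pteridines and the cofactor tetrahydrobiopterin. Its intensity was 86.4, 105.2, 83.7, 77.6 and 66.5 in selected lines 1 to 5 and 102.8, 61.9, 51.7, 57.1 and 77.1 in control lines 1 to 5. All 5 selected lines were above the control median, but only selected line 2 was above control line 1, the highest control. The log2 level was 6.39 ± 0.24 in the selected lines and 6.11 ± 0.39 in the control lines (SD, n = 5 each). The difference was 0.28 ± 0.18 (SE), with a 95% interval of -0.11 to 0.68 (adjusted p = 0.746 from limma, and p = 0.198 in the exact two-sided permutation test). This value depended on control line 1. It was 0.43 ± 0.14 without that line (adjusted p = 0.225 from limma), 0.42 ± 0.16 without line 1 of both groups, and 0.19 ± 0.18 without control line 3, the lowest.

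Purple (pr, arm 2L) acts directly after Punch. Its intensity was 293.9, 265.9, 314.7, 269.4 and 298.8 in selected lines 1 to 5 and 319.1, 320.8, 280.4, 288.5 and 326.0 in control lines 1 to 5. Selected lines 2 and 4 were below every control line, and the other 3 selected lines lay among the control lines. The log2 level was 8.17 ± 0.10 in the selected lines and 8.26 ± 0.099 in the control lines (SD, n = 5 each). The difference was -0.089 ± 0.074 (SE), with a 95% interval of -0.25 to 0.072 (adjusted p = 0.901 from limma, and p = 0.198 in the exact two-sided permutation test). In this fit the interval spans a fold of 0.841 to 1.05. With each array centred on its median the difference was -0.16 ± 0.083 (SE).

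Sepia (se, arm 3L) encodes an omega class glutathione transferase that makes the acetyl dihydro pyrimidodiazepine from which the red drosopterins form. It read 18.9, 18.2, 20.0, 20.4 and 19.7 in selected lines 1 to 5 and 20.3, 21.9, 19.3, 17.7 and 19.7 in control lines 1 to 5. The values of the selected lines all fell inside the range of the control lines. The log2 level was 4.35 ± 0.063 in the selected lines and 4.37 ± 0.11 in the control lines (SD, n = 5 each), a difference of -0.022 ± 0.068 (SE, adjusted p = 0.999 from limma) with a 95% interval of -0.17 to 0.13. On arm 3L se sits beside its relatives GstO1, GstO2 and GstO3 in the RefSeq gene order. GstO1 differed by -0.16 ± 0.093, GstO2 by -0.029 ± 0.060 and GstO3 by 0.10 ± 0.28 (SE), and 0 of these 3 genes passed. How far their related sequences share signal on the array was not tested.

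The transporters and the pathways were set side by side by role. The median difference was 0.28 over the 2 transporters, 0.0097 for the 1 ommochrome enzyme and -0.022 over the 3 pteridine enzymes, where the median over all features was 0.0075. The ommochrome enzyme gene is cn, which was at the level of no signal on all 10 arrays, so its value says little about that pathway. The transporter value is the midpoint of 0.50 for st and 0.050 for bw. The pteridine value is that of se, between -0.089 for pr and 0.28 for Pu, so Pu alone differed about as much as the transporter median. A role score was formed per line by centring each gene on its mean over the 10 arrays and averaging the genes of a role. It was 0.14 ± 0.17 in the selected lines and -0.14 ± 0.14 in the control lines for the transporters (SD, n = 5 each). For the pteridine enzymes it was 0.029 ± 0.059 in the selected lines and -0.029 ± 0.17 in the control lines. The difference between the roles was not tested, since each role holds few genes.

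**Figure D2:**
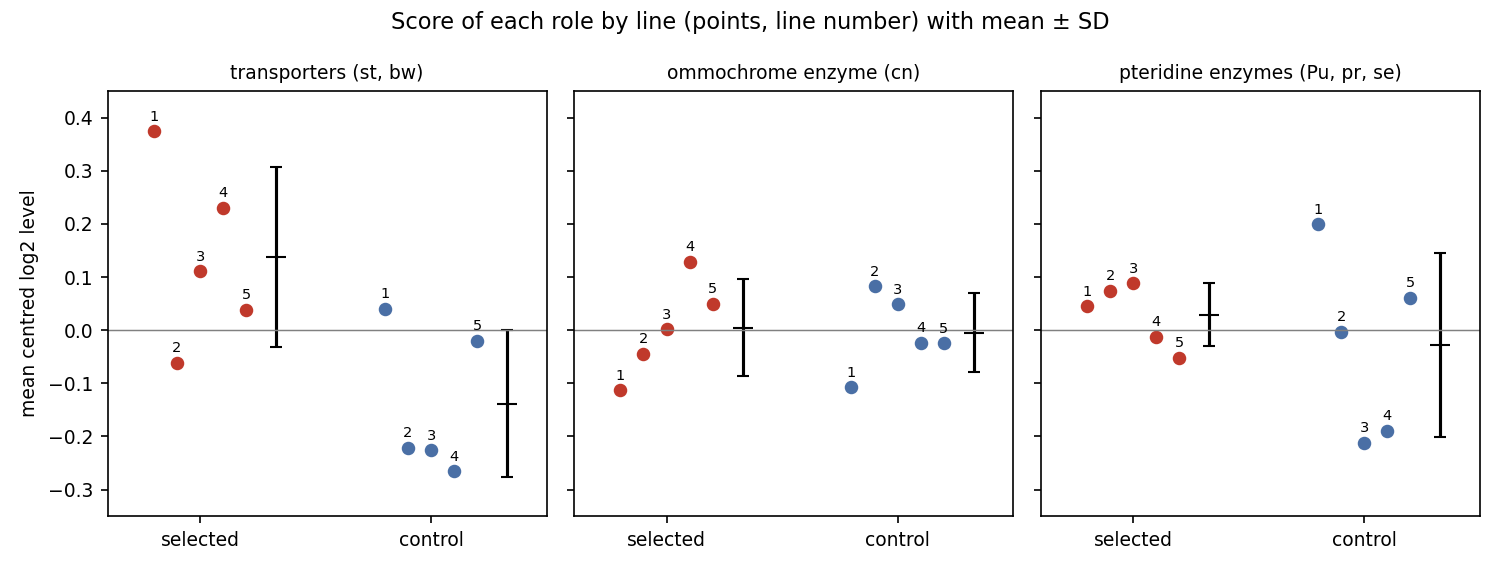
Score of each role by line (y axis, mean log2 level of its measured genes, each centred over 10 arrays), for selected and control lines, with the group mean ± SD in black. The transporter score runs from -0.061 to 0.37 in the selected lines and from -0.27 to 0.040 in the control lines, while the groups lie on top of each other for the ommochrome enzyme and the pteridine enzymes. The ommochrome enzyme gene is cn, which was at the level of no signal.

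The members also differed in how much they varied among the 10 lines, a spread that includes any difference between the groups. The standard deviation of st over all arrays was exceeded by 7.29% of features and that of Pu by 10.6%. For pr it was exceeded by 80.6%, for se by 92.6%, for bw by 93.3% and for cn by 94.1%. The mean of cn was below the highest control probe set of another organism. The means of se, bw, st, Pu and pr were 0.72, 0.92, 1.30, 2.61 and 4.58 above it in log2.

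The genes whose line-to-line pattern was most like that of each member were sought among all named features, as Pearson's r across the 10 arrays after removing each group's mean. For st they were Tg (0.94), CG13994 (0.94) and IM33 (0.93), with differences between the groups of -0.069, -0.0047 and 0.026 in log2. For Pu they were CG4666 (0.98), CG5346 (0.97) and CG9459 (0.97), which differed by 0.40, 0.21 and 0.49. For cn they were CG4362, CG12439 and CG13437 (each 0.99), all with mean log2 levels of 3.02 to 3.24 at the level of no signal. For bw they were Myo95E (0.97), ALiX (0.96) and Cow (0.94), for pr CG13947 (0.92), CG14903 (0.86) and TfIIA-S (0.86), and for se mRpL16 (0.92), cyr (0.90) and Fdx1 (0.89). With 10 arrays and this many features such values are a description only. The means of cyr (3.08) and Cow (3.69) in log2 were also at or near the level of no signal. No member was among the closest genes of another. The most alike members were bw and cn (r = 0.74), and cn was at the level of no signal.

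The rest of both pathways was read from lists of further genes. Among 3 other ommochrome genes the mean was higher in the selected lines for 2 and lower for 1 (median difference 0.041), and 0 passed. The kynurenine formamidase gene KFase, whose enzyme acts between vermilion and cinnabar, differed by -0.0075 ± 0.13 (SE), kar by 0.041 ± 0.092 and the peroxidase gene cd, which acts late in ommochrome synthesis, by 0.16 ± 0.11. The log2 levels of KFase (4.04 selected, 4.05 control) and cd (4.01 and 3.86) were little above the highest control probe set of another organism (3.64). Their differences therefore say little. Among 7 other pteridine genes the mean was higher in the selected lines for 2 and lower for 5 (median difference -0.070), and 0 passed. The dihydropteridine reductase gene Dhpr, which regenerates tetrahydrobiopterin, had a log2 level of 7.85 ± 0.17 in the selected lines and 8.08 ± 0.17 in the control lines (SD, n = 5 each), a difference of -0.23 ± 0.10 (SE, adjusted p = 0.511 from limma). It was the 1 gene of these 10 at an unadjusted p under 0.05, where 3.97% of all features stood there with a lower mean in the selected lines. The sepiapterin reductase gene Sptr differed by -0.11 ± 0.081 and the xanthine dehydrogenase gene ry by -0.26 ± 0.20. Among enzymes that use tetrahydrobiopterin, the tyrosine hydroxylase gene ple, the entry to dopamine synthesis, differed by 0.22 ± 0.30, and the nitric oxide synthase gene Nos, whose mean was at the level of no signal, by -0.071 ± 0.095 (SE).

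Proteins that carry cargo to pigment granules, which are relatives of lysosomes, were measured through 16 genes of the AP-3, HOPS and BLOC complexes and of Rab32 with its activators. The mean of the selected lines was the higher one for 4 of these and the lower one for 12, with a median of -0.045, against 53.7% of all features with a higher mean and a median of 0.0075 over all features. None of the 16 passed limma's test, and 0 were at an unadjusted p under 0.05. The AP-3 subunits cm (carmine) and rb (ruby) differed by -0.12 ± 0.085 and -0.18 ± 0.15, and p (pink) by -0.10 ± 0.12 (SE). Of 12 other transporter subunits of the ABCG family, relatives of white, scarlet and brown, the mean was higher in 5 and lower in 7, with a median of -0.051, and 0 passed. CG4822 had the largest difference of these 12 genes, 0.38 ± 0.20 (SE, adjusted p = 0.619 from limma), CG31689 differed by -0.079 ± 0.066 and CG31121 by -0.10 ± 0.089.

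**Figure D3:**
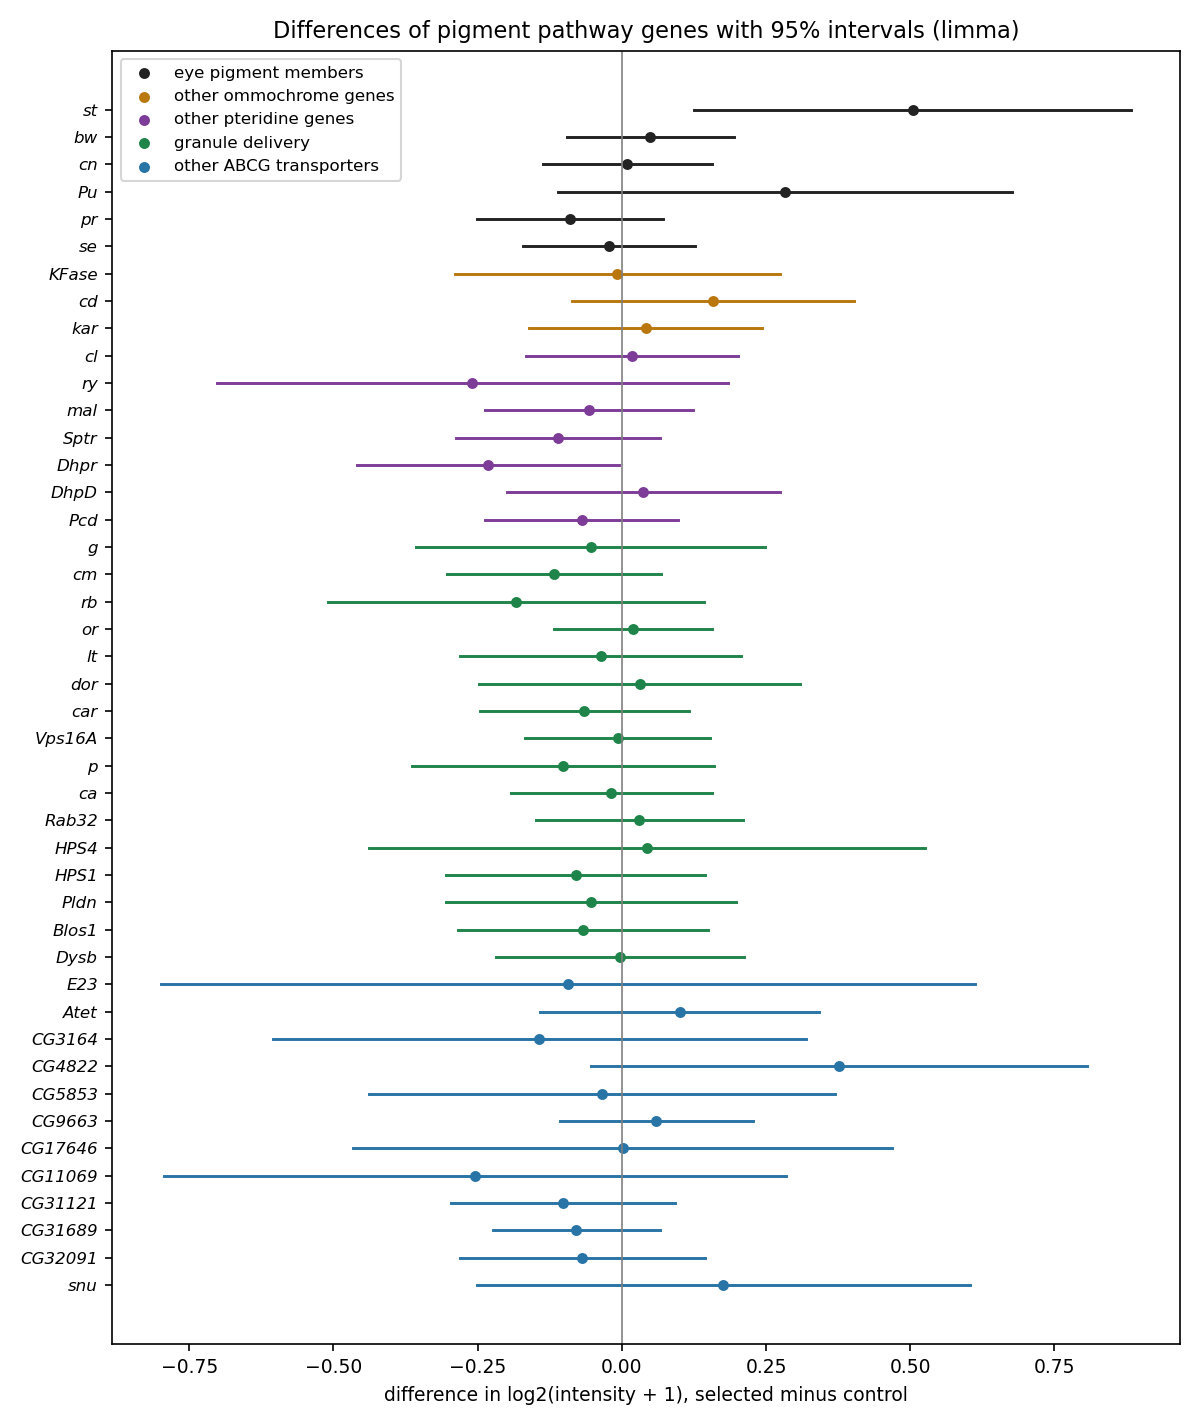
Difference in log2(intensity + 1), selected minus control (x axis), with its 95% interval from limma, for the 6 measured eye pigment genes and 38 further genes of ommochrome and pteridine synthesis, granule delivery and the ABCG family. The intervals of st and Dhpr lie to 1 side of 0 before adjustment, st at 0.12 to 0.88, and those of the other genes include 0.

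Markers of the tissues that hold pigment genes were read in the same lines. Of 16 photoreceptor genes 15 had higher means in the selected lines and 11 were at an unadjusted p under 0.05, with a median of 0.56, and 0 passed over all features. Over all features the mean was higher in the selected lines for 53.7%, and for 5.55% it was so at an unadjusted p under 0.05. This pattern was known from earlier work on these arrays and is no independent support. Summed over the 16 genes, intensity ran from 3359 to 5106 in the selected lines and from 2238 to 3814 in the control lines, and no marker was at 0 (lowest value 7.42). Most of this sum came from Arr2 and Arr1, the brightest of these genes (log2 levels of 11.1 and 10.3 in the selected lines). Listed genes that were not measured include the rhodopsin genes ninaE and Rh3 to Rh6. The G protein subunit gene Gbeta76C had a log2 level of 6.47 ± 0.17 in the selected lines and 5.72 ± 0.41 in the control lines (SD, n = 5 each), the arrestin gene Arr1 differed by 0.77 ± 0.18 and the scaffold gene inaD by 0.76 ± 0.19 (SE). By line, st and the photoreceptor score were both lowest in control lines 2, 3 and 4. The scores of the retinal pigment cell and Malpighian tubule genes, described below, were lowest in the same lines. These lines were also the lowest control lines for the muscle score (-1.73, -0.61 and -0.36) and the fat body score (-0.15, 0.023 and -0.13). They were not for the ovary, neuronal and male tissue scores, so the pattern is not particular to tissues that hold pigment genes. Among the selected lines st was lowest in line 2, where the photoreceptor score was 0.18, and that score was lowest in line 5. The photoreceptor score was 0.0053 to 0.33 in the selected lines, against -0.51 to 0.052 in the control lines. The part of photoreceptor RNA in the difference of st was not tested.

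Genes known from retinal pigment and cone cells were Pdh (photoreceptor dehydrogenase), rdhB and pinta. Pdh differed by 0.65 ± 0.25, rdhB by 0.26 ± 0.12 and pinta, which binds retinoids, by -0.10 ± 0.086 (SE), and 0 of 3 passed. Their summed intensity ran from 330 to 448 in the selected lines and from 202 to 418 in the control lines. Their score was lowest in control lines 2, 3 and 4 (-0.33, -0.27 and -0.43), where st was also lowest. It was 0.24 in control line 1, the highest control line for st, and -0.033 in selected line 1, where st was highest. For 7 of 8 Malpighian tubule genes the selected lines had the higher mean (median difference 0.13), against 53.7% of all features, and 0 passed. The potassium channel gene Irk3 differed by 0.64 ± 0.15, the zinc transporter gene ZnT35C by 0.36 ± 0.13 and Irk2 by 0.40 ± 0.22 (SE), and every selected line was above every control line for Irk3 and ZnT35C, where the groups were free of overlap for 1.59% of all features. These 3 genes are the ones of the list with the smallest p. The summed intensity of the 8 genes ran from 3120 to 3391 in the selected lines and from 2673 to 3252 in the control lines, and no marker was at 0 (lowest value 17.4). The part of tubule RNA in the differences of st and Pu was not tested.

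**Figure D4:**
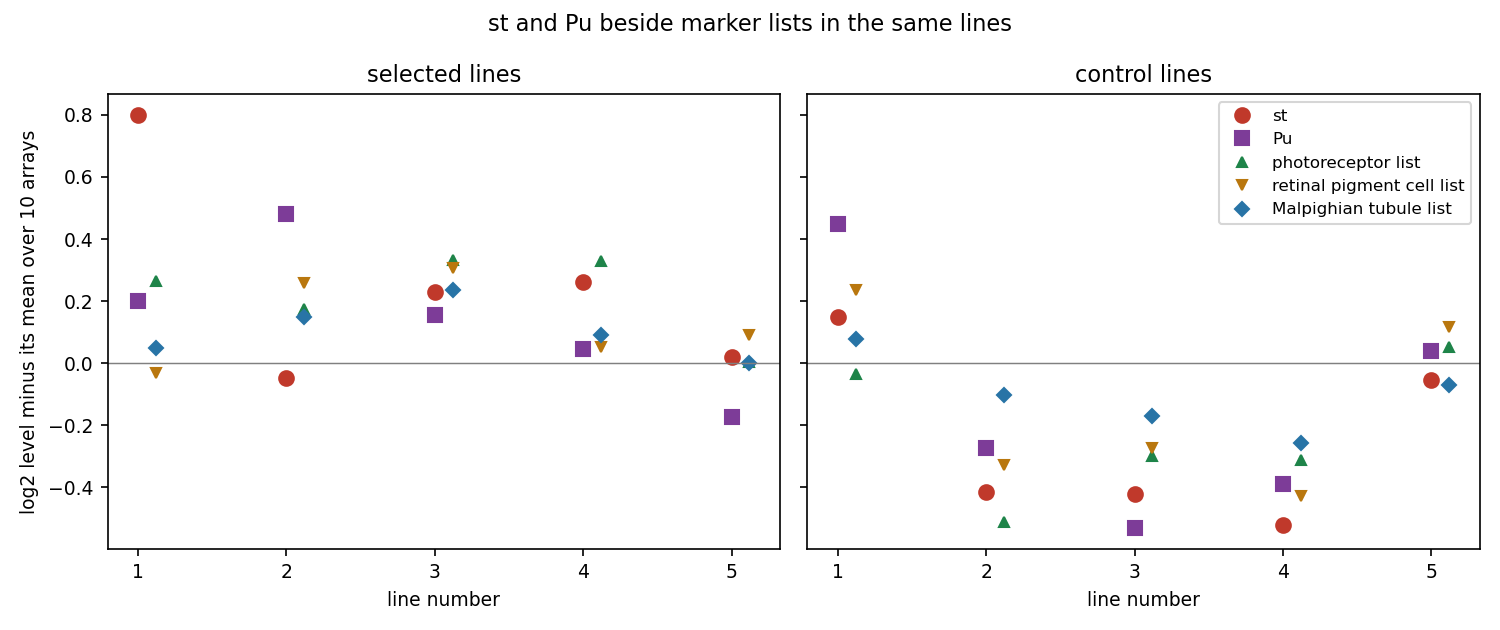
Log2 level minus its mean over the 10 arrays (y axis) of st and Pu, beside the mean of 3 marker lists, by line number in selected lines (left) and control lines (right). In control lines 2, 3 and 4 all 5 measures lie below 0, and in the selected lines st spreads above the lists in line 1 and below them in line 2.

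Markers of other tissues of the whole fly were read in the same way. The median difference was 0.91 over 8 muscle genes (8 higher) and -0.47 over 13 ovary and eggshell genes (12 lower). It was 0.10 over 6 neuronal (5 higher), -0.046 over 6 fat body (5 lower) and 0.039 over 4 male tissue genes (4 higher). Over all features 53.7% had the higher mean in the selected lines, and 0 genes of these lists passed. At an unadjusted p under 0.05 from limma, 5 muscle and 2 neuronal genes were higher in the selected lines, against 5.55% of all features. In the same way 7 ovary genes and 1 fat body gene were lower, against 3.97% of all features. The part of these tissues in the values of the eye pigment genes was not tested.

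The nearest genes on the chromosome were compared with each member, 3 measured genes on each side in the RefSeq order. Around st, 3 of 6 neighbours had higher means, their differences ran from -0.14 to 0.42, and Mipp1 was the 1 neighbour at an unadjusted p under 0.05 (0.42 ± 0.18, SE, adjusted p = 0.503 from limma), a count to be read against the 9.52% of all features. It was picked after its value was seen. The neighbour of st on each side differed by 0.021 and -0.14. Around the other 5 members 0 of 6 neighbours each were at an unadjusted p under 0.05, and their differences ran from -0.17 to 0.23.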

How the data were processed

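GCRMA is named in the submitters' processing notes, and the deposited intensities on a linear scale (0.830 to 32744) are taken as its output by the authors: background correction from probe sequence, normalization between arrays on the premise that few transcripts change, and 1 value per probe set. Its version and settings are not given here. The platform annotation gave 1 gene for 12444 of 14010 probe sets, several for 327 and none for 1239. Chromosome arms and gene order came from RefSeq (Release 6 plus ISO1 MT), without coordinates, since the array's build is unknown. No sequences were used.

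Analysis was on log2(intensity + 1), a scale on which changes of dim genes look smaller than they are. Features above 3 in log2 on at least 5 of 10 arrays were kept, without the 44 control probe sets, and the brightest kept probe set stood for a gene, leaving 10961 features. The fit used limma 3.58.1 (lmFit, eBayes, R 4.3.3), two-sided, and p was adjusted by Benjamini-Hochberg across every feature kept, with calls at 0.05. In simulated data for this comparison, with 10961 genes, the test recovered 67.2% of 1.5-fold changes, 89.6% of 2-fold and 98.5% of 4-fold changes. It also called 12 unchanged genes. The changes were planted in 67, 67 and 66 genes, and the genes were drawn independently of each other. The adjusted p of a gene depends on how many others change, so the shares hold for that many planted changes. On the real arrays 0 features passed. On the real arrays the first principal component held 33.6% of the variance. The shares are averages over genes and are not the chance for st, whose standard deviation only 7.29% of features exceeded. The number of arrays limits the precision.

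Lists were described by counts and medians. The members and the 14 lists (129 entries) were chosen with earlier results of these data known. All members were named, up to 3 genes per list by smallest p, and the 3 most alike genes per member. The neighbour comparison and the probe set listed for v were added after the data were seen. The 20 alternatives covered the pseudocount, filter, normalization, probe set choice, variance model, line number as a block and lines left out.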

Additional observations from a re-analysis of the deposited data

Results flagged for a closer look

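Among 94 groups of 5 lines examined for 1 value far from the other 4, 11 had such a value by Dixon's test at 95%, which chance gives in about 1 in 20 groups. None of the 11 concerned st, bw, cn, Pu, pr or se. Of the 11, 6 were in line 1 of a group, the line with the high 3' excess. In log2 levels, ry was at 4.73 in selected line 1 (4.03 to 4.13 in the other 4 selected lines) and at 5.23 in control line 1 (4.18 to 4.43 in the others), cd at 4.45 in selected line 1 (3.83 to 3.98), ple at 3.71 in selected line 1 (4.94 to 5.39), pinta at 5.91 in control line 1 (5.51 to 5.60) and Acp26Aa at 3.93 in control line 1 (4.26 to 4.38). In other lines, kar was at 7.55 in selected line 5 (7.19 to 7.28), GstO1 at 8.54 in selected line 4 (8.81 to 8.90), Arr1 at 9.93 in selected line 5 (10.43 to 10.46), cm at 8.33 in control line 2 (8.10 to 8.15) and Femcoat at 8.49 in control line 5 (9.01 to 9.12).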

How the results depend on the processing

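Under all 20 alternatives 0 of the measured eye pigment genes passed. The differences of st (0.34 to 0.60), Pu (0.19 to 0.43) and pr (-0.16 to -0.061) kept their sign in every alternative that measured them. Adjusted p for st ran from 0.114 to 0.685, and for Pu from 0.225 to 1.00. The sign of cn turned with quantile normalization (-0.0087), with each array centred on its median (-0.058), and without control line 1 (-0.016), selected line 4 (-0.021) or selected line 5 (-0.0016), within a range of -0.021 to 0.039 with 1 line left out. That of bw turned with median centring (-0.018) and that of se without control line 2 (0.014), within a range of -0.059 to 0.014. The median over the transporters stayed between 0.19 and 0.33. That over the pteridine enzymes ran from -0.090 to 0.097. The value of 0.097 came under a filter at a log2 level of 5, which left Pu and pr and removed the other members. Features past the threshold numbered 0 in the main setting, 2 with the replicate block, and 0 to 3 with 1 line left out (3 without control line 5, 1 without selected line 2). With line number as a replicate block st differed by 0.50 ± 0.11 (SE, adjusted p = 0.160 from limma) and Pu by 0.28 ± 0.16. The deviations of same-numbered lines correlated across features at 0.55, 0.21, 0.20, 0.35 and 0.027 for lines 1 to 5, and not every line correlated best with its own number. Nothing in the labels ties same-numbered lines together and line 5 was near 0, so the numbers were not taken as pairs. Signal over background limits cn, and the second bw probe set, most.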

Other observations

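A probe set without a gene in the platform annotation is listed by its identifier among the RefSeq synonyms of v, the tryptophan dioxygenase gene of ommochrome synthesis, in a synonym list that also holds names of other genes, so its identity is uncertain. Its intensity was 59.9, 69.4, 40.9, 34.4 and 46.6 in selected lines 1 to 5 and 83.7, 53.0, 45.9, 42.2 and 48.4 in control lines 1 to 5. Its log2 level was 5.64 ± 0.40 in the selected lines and 5.75 ± 0.38 in the control lines (SD, n = 5 each), and the groups differed by -0.12 ± 0.21 (SE, adjusted p = 0.999 from limma).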
